A study of Mus musculus with 45 samples.

Results

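GABA-A receptors are the chloride channels through which GABA, the main inhibitory transmitter of the brain, acts on neurons. Each receptor is built from several subunits of different classes around a central pore, and the alpha subunit sets much of its kinetics, drug sensitivity and place on the cell. Receptors with the products of Gabra2 or Gabra3 lie mainly at synapses, those with the Gabra5 product mostly outside synapses in the hippocampus, and those with the Gabra4 product often contain the delta subunit (Gabrd) and carry tonic current. The beta subunits (Gabrb1, Gabrb2) help to form the GABA binding site. The 7 genes of this set, Gabra2, Gabra3, Gabra4, Gabra5, Gabrb1, Gabrb2 and Gabrd, are GABA-A receptor subunits picked by name, with no threshold on their values but with earlier results of these data known, and are 7 of 18135 genes in the deposited data. All 7 were abundant enough to be tested in every fit, which took genes that averaged 10 normalized counts or more.

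The RNA sequencing data cover 45 samples of male C57BL/6J mice aged 13 weeks. WT mice, heterozygous mice (Shank3-HT) and mice labelled knock-out (Shank3-HM) were compared in prefrontal cortex (cortex below), hippocampus and striatum, with 5 samples in each of the 9 groups and no treatment. The mutant allele is a germline deletion of Shank3 exons, carried in all cells, so that no promoter or Cre driver limits it. Values are normalized counts, which the authors made from estimated counts with DESeq2, and their sums per sample were 26118607 to 29568983, so that the sequencing depth itself is unknown. A difference is the log2 difference of normalized counts after adding 1, and p values were adjusted over all genes tested in the fit. The labels number the samples but do not state which come from the same mouse, and p values measure the spread between these samples.

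Shank3 itself averaged 8005, 6138 and 4054 normalized counts in WT, Shank3-HT and Shank3-HM cortex, with 5 samples each. It was lower by 0.38 to 0.50 in Shank3-HT and by 0.98 to 1.11 in Shank3-HM mice on the log2 scale over the 3 regions, and passed the test in 5 of 6 comparisons (adjusted p = 0.288 for Shank3-HT cortex). Striatum and hippocampus carried the markers of their labels. The 7 markers of cortical projection neurons summed to 30555 to 57449 normalized counts in cortex and 1235 to 11129 in striatum. In hippocampus they summed to 36793 to 46669, so that they did not set cortex apart from it. The 10 markers of striatal spiny projection neurons summed to 189441 or more normalized counts in every striatum sample against at most 51473 elsewhere, and the 7 markers of hippocampal granule and pyramidal neurons to 10509 or more in every hippocampus sample against at most 1246 elsewhere. Some samples stood apart. Replicate 2 of Shank3-HM cortex had a spiny projection neuron marker sum of 51473 against 5646 to 7747 in the other cortex samples, and replicate 1 of WT hippocampus had the largest spread from its group in that region. Choroid plexus markers ranged from 1261 to 122309 in the hippocampus and from 444 to 67983 in the striatum. The part of these tissue markers in the values below was not tested, except that values are given without single samples where stated. In such bulk samples, fewer cells of a type and less RNA per cell cannot be told apart.

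Of the 7 genes, 3 lie together on chromosome 5 (GRCm38, GENCODE M21), where Gabra2 (ENSMUSG00000000560, chr5:70957597-71095849, minus strand) is followed by Gabra4 (ENSMUSG00000029211, chr5:71569749-71658308, minus strand) and Gabrb1 (ENSMUSG00000029212, chr5:71658113-72149037, plus strand). Gabra4 and Gabrb1 face away from each other, and their annotated 5′ ends overlap by 196 bases, of which 46 are exonic in both. Gabra5 (ENSMUSG00000055078, chr7:57407672-57510059, minus strand) overlaps an unnamed gene model (Gm9962) over 148 exonic bases. The other members were Gabra3 (ENSMUSG00000031343, chrX:72432681-72656848, minus strand), Gabrb2 (ENSMUSG00000007653, chr11:42419757-42629028, plus strand) and Gabrd (ENSMUSG00000029054, chr4:155384980-155398112, minus strand). Libraries were made with a stranded kit, and overlapping exons on opposite strands were few, 0.756% of the exonic bases of Gabra4, 0.332% of those of Gabrb1 and 4.98% of those of Gabra5.

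RefSeq promoter windows of 300 bases (GRCm38.p6, 250 before and 50 after the start) were at hand for 6 of the 7 genes, all but Gabrd, with 10 windows in all. For Gabrb1 and Gabra3, which have 2 windows each, the one with the lower coordinates is shown. Windows of Gabra4 and Gabrb1 are shown because the genes are divergent neighbours with different regional levels, and windows of Gabra5 and Gabra3 because these genes had their highest levels in hippocampus and cortex. They run 5′ to 3′ on the strand of the gene, and capitals mark matches on either strand to a TATA box (TATAAA), to a CCAAT box or to a GC box (GGGCGG).
Gabra4 (chr5:71658259-71658558, minus strand): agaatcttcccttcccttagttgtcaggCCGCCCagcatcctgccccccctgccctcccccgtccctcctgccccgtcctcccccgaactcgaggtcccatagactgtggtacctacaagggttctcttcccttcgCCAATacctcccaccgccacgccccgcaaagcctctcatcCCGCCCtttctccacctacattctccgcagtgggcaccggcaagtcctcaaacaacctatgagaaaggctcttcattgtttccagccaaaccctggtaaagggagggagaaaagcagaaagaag
Gabrb1 (chr5:71657671-71657970, plus strand): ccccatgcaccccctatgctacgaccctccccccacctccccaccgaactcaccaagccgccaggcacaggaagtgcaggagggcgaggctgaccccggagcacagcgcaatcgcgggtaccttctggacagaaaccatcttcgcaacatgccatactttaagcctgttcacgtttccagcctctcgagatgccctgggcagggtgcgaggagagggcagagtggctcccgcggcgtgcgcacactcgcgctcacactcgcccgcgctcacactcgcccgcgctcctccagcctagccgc
Gabra5 (chr7:57510010-57510309, minus strand): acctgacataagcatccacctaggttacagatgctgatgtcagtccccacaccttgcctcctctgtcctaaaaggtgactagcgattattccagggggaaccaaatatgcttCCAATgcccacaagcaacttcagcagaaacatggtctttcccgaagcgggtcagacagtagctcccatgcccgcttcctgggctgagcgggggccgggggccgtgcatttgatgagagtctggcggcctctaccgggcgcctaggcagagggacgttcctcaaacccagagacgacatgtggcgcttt
Gabra3 (chrX:72656758-72657057, minus strand): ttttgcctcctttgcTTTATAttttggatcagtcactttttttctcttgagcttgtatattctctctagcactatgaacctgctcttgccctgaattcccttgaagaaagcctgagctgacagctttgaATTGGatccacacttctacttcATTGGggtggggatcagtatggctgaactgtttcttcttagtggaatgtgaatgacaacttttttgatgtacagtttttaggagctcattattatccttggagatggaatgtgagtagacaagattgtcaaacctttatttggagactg
The Gabra4 window held 1 CCAAT box and 2 GC box matches, and the Gabrb1 window shown held no match, with 25 CpG dinucleotides and 66.0% G and C. The second Gabrb1 window (chr5:71699682-71699981) held no match either, with 9 CpG dinucleotides and 50.3% G and C. The Gabra5 window held 1 CCAAT box match, 13 CpG dinucleotides and 56.7% G and C. The Gabra3 window shown had no CpG dinucleotide, 39.3% G and C, 1 TATA box match and 2 CCAAT box matches, and the second had 43.0% G and C with the same counts. Over all 32851 windows of this length, 13.6% held the TATA box, 37.4% the CCAAT box and 35.7% the GC box on either strand, and the medians were 52.7% G and C and 7 CpG dinucleotides. No member window held the cyclic AMP response element TGACGTCA, found in 1.79% of all windows, or the early growth response element, searched as GCGTGGGCG and found in 0.612%. These matches describe the letters of the windows only.

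The 3 regions were compared first in WT mice, with all 9 groups in one limma fit and 16708 genes tested. Regions differed widely across all genes, with a median difference close to 0 for each pair (0.01 for hippocampus and for striatum against cortex). Hippocampus and cortex differed for 6 of the 7 subunits, 3 higher and 3 lower in the hippocampus, where 46.6% of all genes passed the same test (23.3% higher and 23.3% lower). Striatum and cortex differed for 6 of 7, 3 higher and 3 lower (59.3% of all genes, 30% higher and 29.3% lower). Striatum and hippocampus differed for 5 of 7, 2 higher and 3 lower (56.1% of all genes, 27.8% higher and 28.3% lower). The median absolute difference over the 7 subunits was 0.75, 0.97 and 0.72 in these comparisons, and 0.25, 0.33 and 0.31 over all genes. WT groups did not overlap for 5, 6 and 3 of the subunits, against 32%, 46.3% and 38.5% of all genes.

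**Figure D1:**
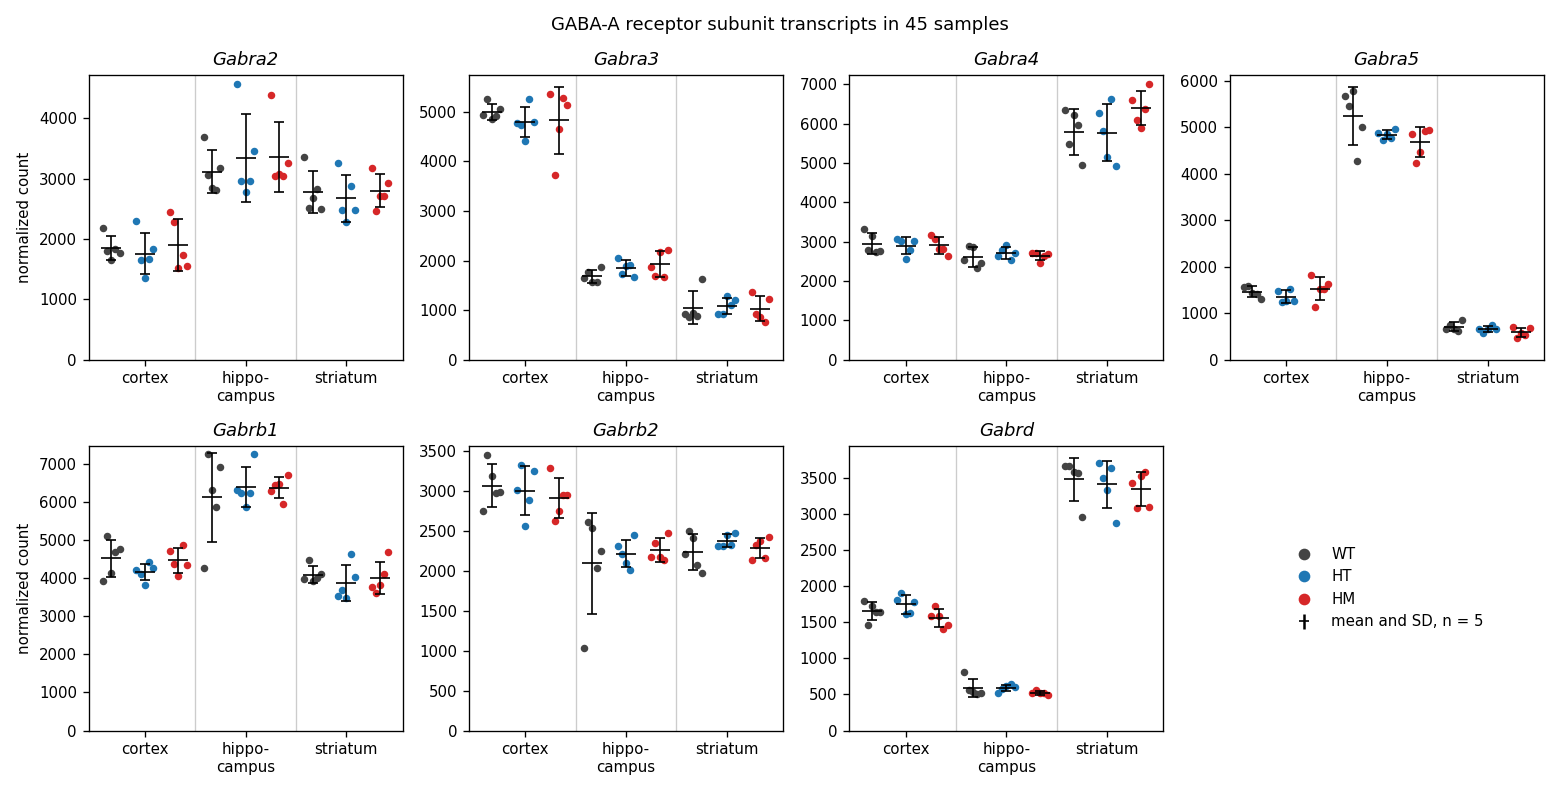
Normalized counts (y axis, from 0) of the 7 GABA-A receptor subunits in each of the 45 samples, by region (x axis) and genotype (colour); points are samples, in the order of their numbers, and black marks are the mean and SD of 5 samples. Gabra3 was highest in the cortex, Gabra5 in the hippocampus, and Gabra4 and Gabrd in the striatum, in each genotype.

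Gabra5, the subunit of the extrasynaptic receptors of hippocampal pyramidal cells, had the largest differences of the 7 subunits between hippocampus and the other regions. Its normalized counts in the 5 WT hippocampus samples were 5679.7, 5465, 5792, 4280.4 and 4997, with a mean of 5243 ± 618 (SD, n = 5). In WT cortex they were 1563, 1593, 1437, 1415 and 1311 (1464 ± 115), and in WT striatum 662, 749, 658, 612 and 862 (709 ± 98.8). The order was hippocampus, cortex, striatum, and no sample of one WT region reached the range of the next. Hippocampus exceeded cortex by 1.83 on the log2 scale (SE 0.103, adjusted p = 6.69e-19), and striatum was below cortex at -1.05 on the log2 scale (SE 0.103, adjusted p = 6.67e-12). Striatum against hippocampus gave -2.89 on the log2 scale (SE 0.103, adjusted p = 4.34e-26) and the striatal mean was 13.5% of the hippocampal mean.

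Gabra3, a synaptic alpha subunit gene on the X chromosome, had its highest level in the cortex. The WT cortex samples held 4926, 5264, 4863, 4909 and 5055 normalized counts (mean 5003 ± 162, SD, n = 5). The WT hippocampus samples held 1644, 1761, 1558, 1564 and 1872 (1680.0 ± 135), and the WT striatum samples 925, 867, 943, 891 and 1631 (1051 ± 325). The cortex lay well above both other regions, and hippocampus and striatum overlapped through replicate 5 of WT striatum. The differences from cortex were -1.58 on the log2 scale (SE 0.132, adjusted p = 1.78e-13) for hippocampus and -2.29 on the log2 scale (SE 0.132, adjusted p = 8.94e-19) for striatum. Striatum was below hippocampus at -0.72 on the log2 scale (SE 0.132, adjusted p = 1.07e-05), and at -0.89 without replicate 5 of WT striatum.

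The marker levels of that striatal sample differed as well. The 7 markers of cortical projection neurons, of which none was at 0, summed to 11129 normalized counts in it, against 2241 to 3693 in the other WT striatum samples. The sums ranged from 1235 to 8777 in Shank3-HT striatum and from 1550 to 8603 in Shank3-HM striatum, with cortex samples at 30555 to 57449. In each of the 3 striatal groups, the sample with the highest sum (replicate 5 of WT, 3 of Shank3-HT and 1 of Shank3-HM) had the highest Gabra3 value of its group, 1631, 1277 and 1360.2. Below these samples, Gabra3 followed the order of the sums in WT and Shank3-HM striatum but not in Shank3-HT striatum. There replicate 5 had a sum of 1636 and a Gabra3 value of 1203, and replicate 1 had 3332 and 923. The part of cortical tissue in these values was not tested.

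Gabrd and Gabra4, whose products combine in tonic receptors, were both highest in the striatum. Gabrd stood at 3660.4, 3664, 3576, 3563 and 2957 normalized counts in WT striatum (3484 ± 298, SD, n = 5), at 1794, 1459, 1727, 1636 and 1647 in WT cortex (1653 ± 126) and at 808, 565, 535, 510.1 and 527 in WT hippocampus (589 ± 124). None of the 3 groups overlapped, and the lowest striatal value was in replicate 5 and the highest hippocampal value in replicate 1, the samples described above. Gabrd was 2.11 times its cortical mean in the striatum, 1.07 on the log2 scale (SE 0.0864, adjusted p = 2.61e-14). Hippocampus was below cortex, -1.51 on the log2 scale (SE 0.0864, adjusted p = 1.57e-18), and striatum above hippocampus by 2.58 on the log2 scale (SE 0.0864, adjusted p = 6.15e-27).

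Gabra4 stood at 6351, 5479.8, 6224, 5961 and 4943 normalized counts in WT striatum (5792 ± 580.0, SD, n = 5). WT cortex samples held 3316, 2780.0, 3159, 2739 and 2774 (2954 ± 266) and WT hippocampus samples 2527, 2896, 2876, 2329.8 and 2457 (2617 ± 255). Striatum lay above the other regions without overlap, while cortex and hippocampus overlapped. Striatum exceeded cortex by 0.97 on the log2 scale (SE 0.0757, adjusted p = 1.03e-14) and hippocampus by 1.15 on the log2 scale (SE 0.0757, adjusted p = 4.99e-17). Hippocampus against cortex gave -0.18 on the log2 scale (SE 0.0757, adjusted p = 0.0540), which missed the threshold, with a 95% interval of -0.33 to -0.02. It passed in 5 of the 10 fits that left out 1 WT sample of either region, with adjusted p of 0.0251 (without hippocampus replicate 2), 0.0280 (hippocampus 3), 0.0387 (cortex 4), 0.0440 (cortex 5) and 0.0446 (cortex 2). It also passed with samples of the same genotype and number as a block (limma adjusted p = 0.0376). The sources used here do not state whether such samples came from the same mouse.

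The ratio of Gabra4 to Gabrd normalized counts was higher in every hippocampus sample than in any sample of the other regions. Its mean was 1.79 in WT cortex (range 1.67 to 1.90), 1.66 in WT striatum (1.495 to 1.74) and 4.50 in WT hippocampus (3.13 to 5.37). In the mutant groups it was 1.58 to 2.01 in cortex, 1.55 to 2.26 in striatum and 3.93 to 5.502 in hippocampus, as ranges over samples. The ratio of Gabra5 to Gabra4 ran from a mean of 1.999 in WT hippocampus to 0.496 in WT cortex and 0.122 in WT striatum. These ratios compare regions for a fixed pair of genes and do not give relative amounts of 2 transcripts, since the values are not per length.

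**Figure D2:**
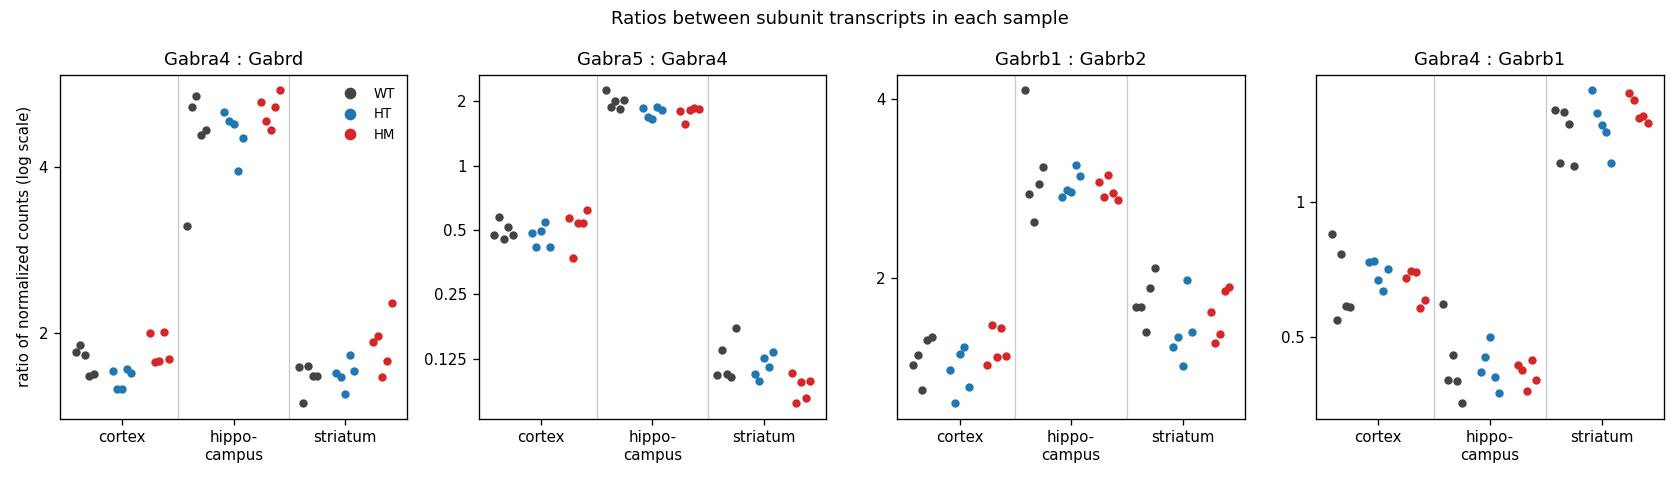
Ratios of normalized counts between pairs of subunit genes in each of the 45 samples, on a log y axis, by region (x axis) and genotype (colour). Hippocampus stands above the other regions for Gabra4 to Gabrd, and striatum above cortex and hippocampus for Gabra4 to Gabrb1, with WT means of 1.41, 0.654 and 0.433 in striatum, cortex and hippocampus.

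Gabra2, the alpha subunit of many synapses on the axon initial segment and of anxiolytic benzodiazepine action, was lowest in the cortex. WT cortex samples held 2174, 1807, 1646, 1835 and 1761 normalized counts (1845 ± 198, SD, n = 5), WT hippocampus samples 3694, 3056, 2839, 2813 and 3174 (3115 ± 357) and WT striatum samples 3358, 2515, 2679.6, 2824 and 2499 (2775 ± 352). All cortex values lay below all values of the other regions, which overlapped each other. Hippocampus exceeded cortex by 0.75 on the log2 scale (SE 0.134, adjusted p = 8.92e-06) and striatum exceeded cortex by 0.59 on the log2 scale (SE 0.134, adjusted p = 0.000231). Striatum against hippocampus was -0.17 on the log2 scale (SE 0.134, adjusted p = 0.292), with an interval of -0.44 to 0.10. Without replicate 1 of WT hippocampus this difference was -0.10, and that of hippocampus against cortex was 0.69.

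Of the beta subunits, Gabrb1 was higher in the hippocampus and Gabrb2 in the cortex. Gabrb1 stood at 4273, 7254, 6321, 5865 and 6911 in WT hippocampus (6125 ± 1165, SD, n = 5), at 3923, 5118, 4138, 4685 and 4759 in WT cortex (4524 ± 486) and at 3969, 4484, 3919, 3998 and 4115 in WT striatum (4097 ± 228). The hippocampal group overlapped the others only through its replicate 1. Hippocampus exceeded cortex by 0.42 on the log2 scale (SE 0.0918, adjusted p = 0.000189), or 0.54 without that sample, and striatum was below hippocampus at -0.56 on the log2 scale (SE 0.0918, adjusted p = 1.50e-06). Striatum and cortex differed by -0.14 on the log2 scale (SE 0.0918, adjusted p = 0.197), within an interval of -0.32 to 0.05.

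Gabrb2, the beta subunit of the most common synaptic receptors, held 2745, 3449, 3193, 2975 and 2984 normalized counts in WT cortex (3069 ± 265, SD, n = 5). WT hippocampus held 1032, 2612, 2538, 2039 and 2244 (2093 ± 636) and WT striatum 2218, 2503, 2419, 2075 and 1975 (2238 ± 223). Cortex lay above both other regions without overlap, and replicate 1 of WT hippocampus was below all other samples. Hippocampus was below cortex at -0.62 on the log2 scale (SE 0.127, adjusted p = 8.01e-05) and at -0.38 without that sample, where it still passed the test. Striatum was below cortex at -0.46 on the log2 scale (SE 0.127, adjusted p = 0.00202). Striatum against hippocampus was 0.16 on the log2 scale (SE 0.127, adjusted p = 0.282) and turned to -0.07 without that sample, and passed the test in neither case.

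The neighbours Gabra4 and Gabrb1 peaked in different regions, Gabra4 with its highest level in the striatum and Gabrb1 in the hippocampus. In WT striatum against hippocampus Gabra4 was higher by 1.15 and Gabrb1 stood at -0.56 on the log2 scale. Per sample, the ratio of Gabra4 to Gabrb1 ranged from 1.201 to 1.60 in WT striatum, from 0.543 to 0.845 in WT cortex and from 0.355 to 0.591 in WT hippocampus. Striatum did not overlap the other regions.

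**Figure D3:**
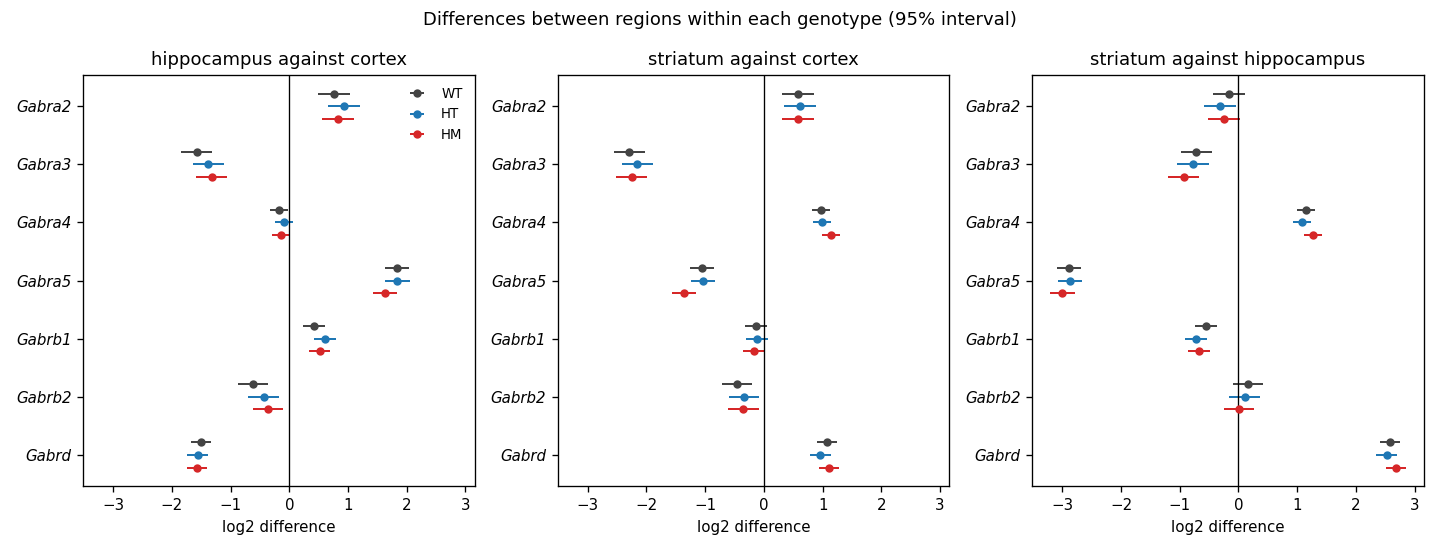
Log2 differences of normalized counts (x axis) between regions for the 7 subunits, in one panel per pair of regions, with 95% intervals from the limma fit of 9 groups; colours are the genotypes. Gabra5 and Gabrd lie farthest from 0 in striatum against hippocampus, at -2.89 and 2.58 in WT mice.

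Levels of different genes were compared only after division by the merged exon length in kb. Per kb, Gabra3 came first in WT cortex at 1275 ± 41.3 (SD, n = 5), followed by Gabrd at 575 ± 43.7. Gabra5 (492 ± 38.7), Gabra4 (486 ± 43.7) and Gabrb2 (483 ± 41.7) did not differ beyond their spread, and Gabrb1 and Gabra2 came last. In WT hippocampus Gabra5 came first at 1763 ± 208 per kb and Gabrd last at 205 ± 43.2, with the other 5 genes between 329 and 443. In WT striatum Gabrd came first at 1212 ± 104 and Gabra4 next at 952 ± 95.4, with the other 5 genes between 238 (Gabra5) and 363 (Gabra2). The first and last places were the same with the length of the longest coding transcript in place of the merged exons, while middle places moved.

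The regional pattern was measured again in the mutant mice. In Shank3-HT mice 6, 6 and 6 of the 7 subunits passed the test for hippocampus against cortex, striatum against cortex and striatum against hippocampus, where 45%, 58.6% and 53.6% of all genes passed. In Shank3-HM mice the counts were 6, 6 and 5, with 42.2%, 57.4% and 54.8% of all genes. Every difference that passed in WT mice passed in the same direction in both mutants. The one further call was Gabra2 in Shank3-HT striatum against hippocampus, at -0.31 on the log2 scale (SE 0.134, adjusted p = 0.0498). It did not pass when any of 5 samples was left out singly, replicates 1 and 5 of Shank3-HT hippocampus and 2, 3 and 5 of Shank3-HT striatum, with limma differences of -0.19, -0.29, -0.28, -0.26 and -0.28 and adjusted p of 0.238, 0.0880, 0.0978, 0.132 and 0.0962. Gabrb2 did not pass in Shank3-HT striatum against cortex without replicate 2 or 5 of Shank3-HT cortex (limma adjusted p = 0.0593 and 0.0530), nor in Shank3-HM hippocampus or striatum against cortex without replicate 1 of Shank3-HM cortex (0.0580 and 0.0555). Calls were also gained in Shank3-HM mice, for Gabra2 in striatum against hippocampus with quantile normalization or only the 2 groups compared (limma adjusted p = 0.0479 and 0.0440), and for Gabrb1 in striatum against cortex without replicate 5 of Shank3-HM striatum (0.0452). For Gabra5, hippocampus against cortex was 1.83, 1.84 and 1.63 in the WT, HT and HM groups, and striatum against cortex -1.05, -1.03 and -1.36. For Gabrd, striatum against hippocampus was 2.58, 2.52 and 2.68 on the same scale.

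Genotypes were then compared within each region, the main question of the study. None of the 7 subunits passed the limma test between mutant and WT mice in any region, in Shank3-HT or in Shank3-HM mice. Few genes of any kind did in these fits, which also missed Shank3 itself in Shank3-HT cortex. The paper, with DESeq2, reported Shank3 as lowered in every mutant group of each region. In the cortex 0% of 16507 genes passed for Shank3-HT and 0.0121% for Shank3-HM mice, in the hippocampus 0.00603% of 16571 for each, and in the striatum 0.00607% and 0.182% of 16482. Shank3-HM against Shank3-HT mice gave 0 of 7 in each region as well, with 0.00606%, 0.00603% and 0.14% of all genes in cortex, hippocampus and striatum. In all 9 comparisons the groups overlapped for each of the 7 subunits. Groups without overlap were found for 0.63%, 0.797% and 0.971% of all genes in cortex, hippocampus and striatum for Shank3-HT against WT mice, for 0.8%, 0.736% and 1.86% for Shank3-HM against WT mice, and for 0.727%, 0.447% and 1.27% for Shank3-HM against Shank3-HT mice.

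At an unadjusted p under 0.05 there were 4 values among the 63 of these 9 comparisons, 1 in Shank3-HM against WT striatum, 2 in Shank3-HM against WT hippocampus and 1 in Shank3-HM against Shank3-HT cortex. Over all genes the share at this level in cortex, hippocampus and striatum was 2.68%, 5.26% and 7.43% for Shank3-HT against WT mice, 5.49%, 4.73% and 7.43% for Shank3-HM against WT mice and 4.87%, 2.09% and 6.49% for the mutants against each other. The 42 differences of mutant from WT mice lay between -0.27 and 0.19 on the log2 scale. Their 95% intervals reached from -0.51 at the lowest to 0.55 at the highest, and 3 of the 42 intervals did not include 0.

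**Figure D4:**
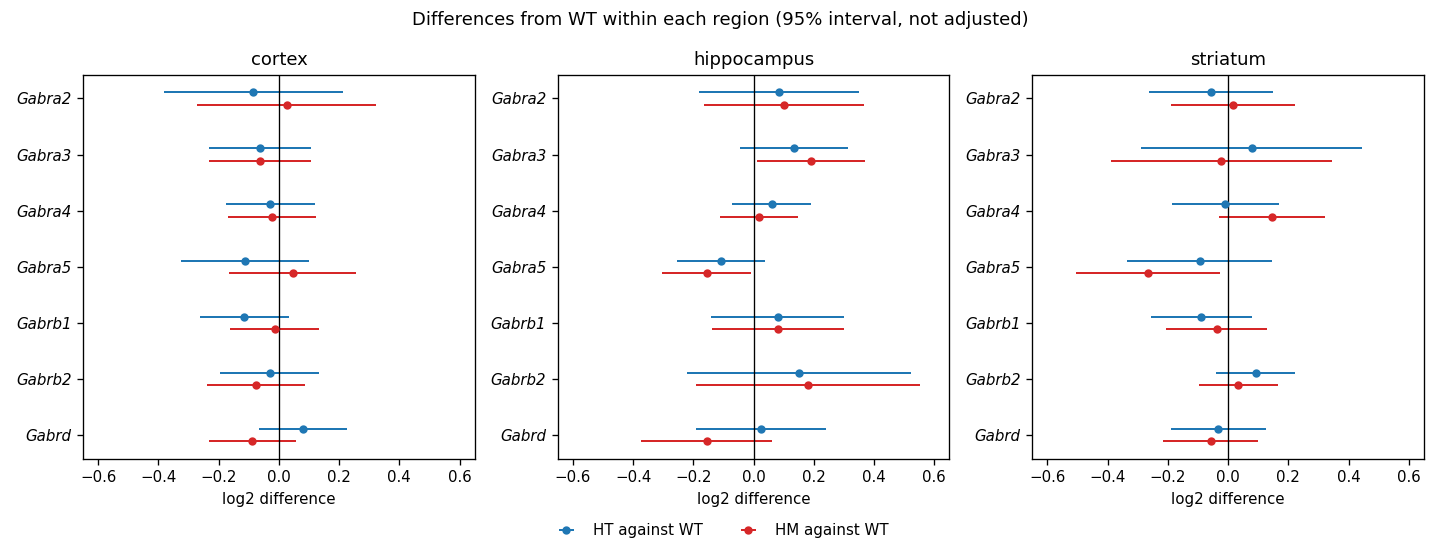
Log2 differences of normalized counts (x axis) of Shank3-HT and Shank3-HM from WT mice for the 7 subunits in each region, with unadjusted 95% intervals from the limma fit of the region. All intervals but those of Gabra5 (hippocampus and striatum) and Gabra3 (hippocampus) in Shank3-HM mice include 0, and no difference passed after adjustment.

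Gabra5 had the largest difference from WT mice. In the striatum it stood at 706, 473, 569.9, 523 and 686 normalized counts in Shank3-HM mice (592 ± 102, SD, n = 5), at 668, 573, 651, 755 and 660.4 in Shank3-HT mice (662 ± 64.9), and at the WT values given above (709 ± 98.8). All 5 Shank3-HM samples lay below the WT mean, and 2 of them within the WT range. The difference of Shank3-HM from WT mice was -0.27 (SE 0.114, 95% interval -0.51 to -0.03), with an adjusted p of 0.620, and that of Shank3-HT mice -0.09 (adjusted p = 0.900). Without replicate 5 of WT striatum, the highest of its group at 862 and the one with the cortical marker sum of 11129, they were -0.19 and -0.02. Replicate 1 of Shank3-HM striatum, the highest of its group at 706 with a cortical marker sum of 8603, was kept in there. Leaving out that sample instead gave a limma adjusted p of 0.392 for Shank3-HM against WT mice.

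In the hippocampus, where the gene is most abundant, Gabra5 stood at 4866, 4239, 4466, 4930.4 and 4938 in Shank3-HM mice (4688 ± 318, SD, n = 5) and at 4871, 4719, 4847, 4772 and 4971 in Shank3-HT mice (4836 ± 96.3), against 5243 ± 618 in WT mice. All 5 samples of each mutant lay below the WT mean, as did WT replicates 4 and 5, so that the groups overlapped. The difference was -0.16 in Shank3-HM mice (SE 0.0700, adjusted p = 0.920) and -0.11 in Shank3-HT mice (adjusted p = 0.926). In the cortex it was 0.05 and -0.11 in the same mutants, with values of 1812, 1138, 1525, 1518 and 1627 in Shank3-HM and 1482, 1251, 1264, 1527 and 1253 in Shank3-HT mice. The lowest Shank3-HM value was that of replicate 2, the sample with striatal markers, and without it the cortical difference was 0.15.

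The effect of the Shank3-HM genotype on Gabra5 was lower in striatum than in cortex, with a difference of -0.31 on the log2 scale (SE 0.145, adjusted p = 0.890) and did not pass after adjustment. For no subunit did the effect of either genotype differ between 2 regions by the limma test, in any of the 6 contrasts of effects. The share of all genes that passed was 0.0539% for Shank3-HM in striatum against cortex, 0.0718% in striatum against hippocampus, and 0% in the other 4 contrasts. At an unadjusted p under 0.05 there was 1 value of 42, the one of Gabra5 above, where 5.42% of all genes lay at this level, and the other 5 contrasts had 3.35%, 3.46% and 5.6% of all genes for Shank3-HT and 4.45% and 5.37% for Shank3-HM mice.

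Gabra4 in the striatum leaned the other way. Shank3-HM mice held 6598, 6099, 5887, 6383 and 7012 normalized counts (6396 ± 438, SD, n = 5), Shank3-HT mice 6281, 5823, 5166, 6641 and 4924 (5767 ± 725) and WT mice 5792 ± 580.0. All 5 Shank3-HM samples lay above the WT mean, and the groups overlapped. The difference of Shank3-HM from WT mice was 0.15 (SE 0.0839, 95% interval -0.03 to 0.32, adjusted p = 0.758), and 0.09 without replicate 5 of WT striatum. In the cortex and hippocampus Gabra4 differed from WT mice by -0.03 to 0.06 over both genotypes.

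Gabra3 in the hippocampus stood at 1862, 1697, 2181, 1678 and 2218 in Shank3-HM mice (1927 ± 259, SD, n = 5) and at 2057, 1723, 1883, 1909 and 1659.8 in Shank3-HT mice (1846 ± 158), against 1680.0 ± 135 in WT mice. The groups overlapped. The difference was 0.19 in Shank3-HM mice (SE 0.0851, adjusted p = 0.920) and 0.14 in Shank3-HT mice (adjusted p = 0.926). In the striatum the values ranged from 769 to 1360.2 in the mutants, and the differences of -0.02 (Shank3-HM) and 0.08 (Shank3-HT) became 0.15 and 0.25 without replicate 5 of WT striatum. That removal was on the WT side only. The mutant samples with the highest cortical marker sums, replicate 1 of Shank3-HM (8603) and 3 of Shank3-HT (8777), were kept in. They held the highest Gabra3 values of their groups, 1360.2 and 1277. In the cortex the mutants held 3721 to 5364 normalized counts, with the lowest value in replicate 2 of Shank3-HM cortex.

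Gabrd, the delta subunit, stood in the cortex at 1591, 1732, 1581, 1406 and 1461 in Shank3-HM mice (1554 ± 127, SD, n = 5) and at 1807, 1908, 1613, 1627 and 1779.6 in Shank3-HT mice (1747 ± 125), on either side of WT mice (1653 ± 126). The mutants differed from each other by -0.17 (SE 0.0688, adjusted p = 0.959), and neither differed from WT mice by the test. The difference of Shank3-HM from WT cortex was -0.09, and -0.13 without replicate 2 of Shank3-HM cortex, the sample with striatal markers. In the hippocampus Gabrd was -0.16 in Shank3-HM mice, with 489 to 559.9 against 510.1 to 808 in WT mice, and -0.04 without replicate 1 of WT hippocampus. In Shank3-HT mice it was 0.03, and 0.14 without that sample. Striatal values were 2878 to 3713 in Shank3-HT and 3081 to 3577 in Shank3-HM mice, and the differences of -0.03 and -0.06 from WT mice had intervals that included 0. Without replicate 5 of WT striatum they were -0.09 and -0.12.

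The beta subunits and Gabra2 did not pass in any comparison with WT mice either. Gabrb1 differed from WT mice by -0.11 (Shank3-HT cortex, 4209, 4102, 3827, 4427 and 4259, all 5 below the WT mean) to 0.08 (hippocampus of both mutants). Gabrb2 differed by -0.08 (Shank3-HM cortex, -0.04 without its replicate 2) to 0.18 (Shank3-HM hippocampus, 2169.7, 2356, 2169, 2140.1 and 2479.5, all 5 above the WT mean), and in Shank3-HT striatum all 5 samples also lay above the WT mean, at 0.09 (limma adjusted p = 0.790), and 0.05 without replicate 5 of WT striatum. The WT hippocampus mean of both genes rests in part on replicate 1, and without it the differences of Gabrb1 were -0.04 in each mutant and those of Gabrb2 -0.06 in Shank3-HM and -0.09 in Shank3-HT mice. Gabra2 differed by -0.08 to 0.10 over the 6 comparisons with WT mice (without replicate 1 of WT hippocampus, its hippocampal differences were 0.15 for Shank3-HT and 0.16 for Shank3-HM), with the widest intervals of the 7 subunits in the cortex (-0.27 to 0.32 for Shank3-HM).

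The spread of Gabra2 within groups followed the sample number. In each of the 9 groups, the sample numbered 1 in the labels had the highest Gabra2 value of 5. In the hippocampus it stood at 3694, 4559 and 4392 normalized counts in the WT, HT and HM groups, while the other samples held 2782 to 3451. In the striatum it stood at 3358, 3259 and 3180.4 against 2287 to 2934 in the others, and in the cortex at 2174, 2291 and 2448 against 1346 to 2283. On average the sample numbered 1 was 1.33 times the other 4 of its group (range 1.18 to 1.504 over the groups). Of 16708 genes, 24 (0.144%) were highest in number 1 in all 9 groups and 37 (0.221%) lowest, while numbers 2 to 5 gave at most 1 gene each way, and no other subunit did so for any number. The labels do not say what a number stands for, and whether number 1 marks a mouse, litter or run was not tested. Without the 9 samples, the differences of Gabra2 from WT mice were -0.12 to 0.06.

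**Figure D5:**
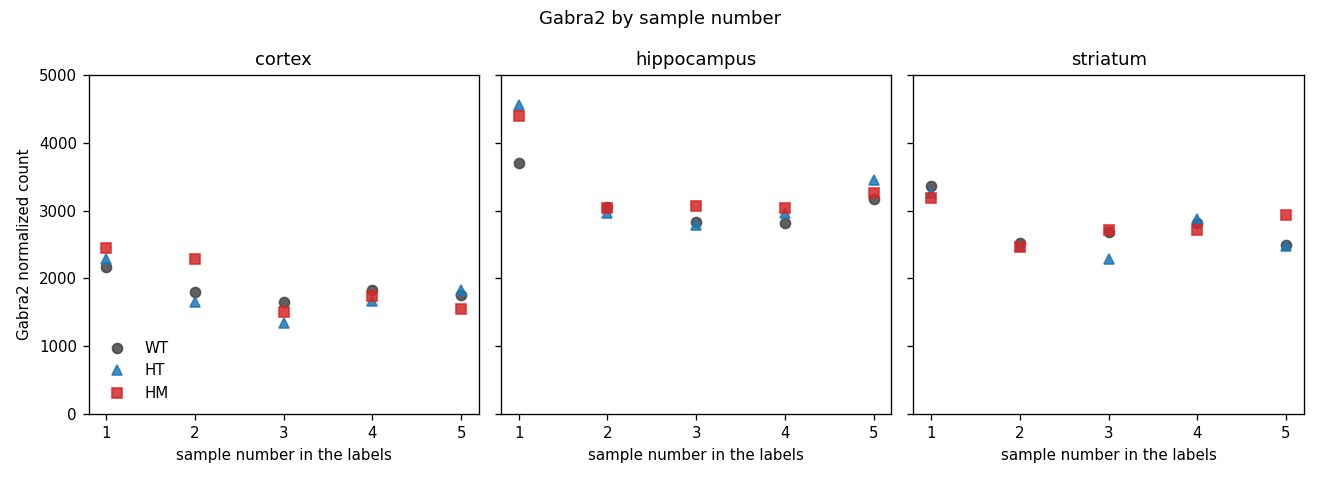
Normalized counts of Gabra2 (y axis, from 0) against the sample number in the labels (x axis) in each region; symbols and colours are the genotypes. The samples numbered 1 are the highest of their group in all 9 groups.

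Genes with the most similar regional pattern were found for each member among 12474 genes with a mean of at least 100, as those with the smallest root-mean-square difference over the 9 group means, each centred on its own mean (log2 scale). This measure is descriptive and was taken over 9 groups of 5 samples in 3 regions. Gabra5 was closest to Trpc4 (0.0757), Gpc4 (0.121) and Nrp2 (0.148), and Gabra3 to Pla2g4e (0.0679), 1110008P14Rik (0.105) and Tshz3 (0.108). Gabrd was closest to Plcxd1 (0.0856), Lin28b (0.121) and Arhgap10 (0.124). Gabra4 was closest to 2510009E07Rik (0.0342), Slc6a6 (0.0403), a taurine transporter gene, and Rundc1 (0.0461). Gabra2 was closest to Ip6k2 (0.0419), Lman2l (0.0573) and Trps1 (0.0655), Gabrb1 to Sms (0.0294), Rnf2 (0.0318) and Thra (0.0493), and Gabrb2 to Marf1 (0.0365), Ttbk2 (0.0433) and Nmt2 (0.0438). No member was among the 3 closest genes of another. Among the 7, Gabra2 and Gabrb1 were the closest pair (0.300) and Gabra5 and Gabrd the farthest (2.27).

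The other genes of the GABA system were counted from fixed lists. Of 12 other GABA-A subunit genes 8 were matched and 7 were tested between regions. In WT mice, 2 were higher and 4 lower in hippocampus than in cortex, 2 higher and 2 lower in striatum than in cortex, and 1 higher and 3 lower in striatum than in hippocampus. Of 17 genes of receptor assembly, trafficking and anchoring, 7 were higher and 3 lower in hippocampus than in cortex, 9 higher and 4 lower in striatum than in cortex, and 7 higher and 6 lower in striatum than in hippocampus. Of 11 genes of GABA supply, GABA-B receptors and chloride transport, the counts were 1 and 6, 7 and 4, and 7 and 2 in the same order. Over all genes tested, 46.6%, 59.3% and 56.1% passed in these comparisons, and the 4 of 7 other subunit genes called in each comparison of striatum were near that background. By genotype, 0 genes of these 3 lists passed the limma test in any of the 6 comparisons with WT mice, and 21 of 214 values were at an unadjusted p under 0.05, against 2.68% to 7.43% of all genes in these comparisons.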

How the data were processed

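Stranded mRNA libraries of 45 samples, 5 for each of 3 genotypes in 3 brain regions, were sequenced by the authors. Per the submitters' processing notes and methods, transcripts were quantified with Salmon 1.1.0 (GRCm38), imported with tximport and normalized with DESeq2, for which the notes name version 1.26.0 with R 3.6.2. The deposited signal values are these normalized counts with decimals, set for all samples together. Whole reads were not recovered from them and the depth is unknown, so that tests which model counts were not applied. The columns of Shank3-HM samples carry another code (KI) than the labels (knock-out) and were matched by name.

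For the tests, 1 was added to each value before taking log2, and genes averaging under 10 were dropped. Moderated linear models with an intensity trend were run in limma 3.58.1 under R 4.3.3, with Benjamini-Hochberg adjustment over all genes tested and a threshold of 0.05. Genotypes were compared in a fit of the 15 samples of a region, and regions and effects of genotype between regions in a fit of the 9 groups. Symbols were matched for 18120 of 18135 genes, and descriptive tables were made with Python 3.11.15. The 7 genes were named in every group, and the 3 genes with the nearest pattern were named for each. The members and gene lists were chosen with earlier results of these data known, and their counts are descriptions. Alternatives were no trend, quantile normalization, other filters, a pseudocount of 0.1, a replicate block, only the groups compared, the 9-group fit for genotypes, and leaving out each sample. The block was genotype and number together in the fit of the 9 groups, and the number as a factor in the fit of a region. Leaving out the samples numbered 1, or the 2 samples that stand apart, was added after seeing the data.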

Additional observations from a re-analysis of the deposited data

Results flagged for a closer look

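Among the 63 sets of 5 samples (7 subunits in 9 groups), 5 had an end sample whose gap to the nearest other was more than 0.71 of the range, a limit that chance passes in about 1 of 20 sets. Gabra2 in replicate 1 of Shank3-HM hippocampus was 4392 normalized counts against 3039 to 3262 in the other 4, and number 1 was the highest in the other 8 groups as well. Gabra3 in replicate 5 of WT striatum was 1631 against 867 to 943, and Gabrd in the same sample was 2957 against 3563 to 3664. That sample had the highest cortical projection neuron marker sum (11129) and the lowest spiny projection neuron marker sum (189441) of the striatum, and the part of tissue in its values was not tested. Gabrd in replicate 1 of WT hippocampus was 808 against 510.1 to 565, in the sample that also had the lowest Gabrb2 and Gabrb1 values of its group. Gabra4 in replicate 3 of Shank3-HM hippocampus was 2449 against 2641 to 2715. No subunit passed the test for a genotype effect that differs between regions.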

How the results depend on the processing

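The number of subunits that passed between genotypes, and between effects of genotype, was 0 under every alternative, and the lowest adjusted p of any of these genotype differences was 0.392 (Gabra5 in Shank3-HM striatum, without replicate 1 of that group). Between regions the counts stayed within 5 to 7 of 7, and no difference that passed changed direction under any alternative. Gabrb2 in WT striatum against hippocampus, 0.16 as reported, was -0.0743 without replicate 1 of WT hippocampus, -0.0743 without the 2 samples that stand apart and -0.0725 without the 9 samples numbered 1, and passed in no case (range -0.07 to 0.26 when 1 sample was left out). The replicate numbers do not pair the samples by the labels. The deviations of same-numbered samples correlated by -0.119 to 0.150 between genotypes (7 of 45 pairs over 0.1, 12 of 45 best with their own number). Between regions they correlated by -0.100 to 0.225 (16 of 45 pairs over 0.1, 26 of 45 best with their own number). The mean between regions was 0.071 for the same number and -0.018 for other numbers, while the main fits took the samples as independent. With the number as a factor in the fit of each region, the counts between genotypes were 0 of 7. Between regions, samples of the same genotype and number formed a block. Gabra4 in WT hippocampus against cortex, -0.18, then had a limma adjusted p of 0.0376 in place of 0.0540. Without 1 WT sample the same difference was -0.21 to -0.13. In the mutants, Gabra2 in Shank3-HT striatum against hippocampus, adjusted p = 0.0498, missed the threshold under 9 alternatives, with the largest limma adjusted p, 0.238, without replicate 1 of Shank3-HT hippocampus. With 5 samples a group and SE of 0.06 to 0.18 on the log2 scale for genotype differences, small changes could not be detected, and the unknown depth gives no counting error.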
